A study of Mus musculus with 4 samples.

Results

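The 9 genes described here, Tdrd1, Tdrd5, Tdrd6, Tdrd7, Tdrd9, Tdrd12, Tdrkh, Rnf17 and Stk31, encode Tudor domain proteins of germ cell granules. They are defined by gene name and are 9 of the 54232 genes counted. RNA was sequenced from whole testes of mice of the strain labelled B6D2F1 inbred at postnatal day 17, when the first wave of spermatogenesis has reached pachytene spermatocytes. The groups were Dis3 WT (control, 2 libraries) and Dis3 KO (conditional knockout, 2 libraries). The labels name no driver of the deletion and no cell type that lost Dis3. They also do not tell whether libraries of a group stem from separate animals, so p-values measure only the spread between these libraries.

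Germ granules, such as the intermitochondrial cement of young germ cells and the chromatoid body of spermatids, are cytoplasmic bodies of RNA and protein. PIWI proteins and their small guide RNAs, the piRNAs, which silence transposons, are loaded and stored there. Tudor domains bind symmetrically dimethylated arginines, a mark that PRMT5 places on PIWI proteins, and so tether PIWI proteins, helicases and nucleases to the granule. Dis3 encodes a 3′ to 5′ ribonuclease of the RNA exosome, which also degrades short-lived transcripts made upstream of promoters.

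The WT libraries held 31031920 (replicate 1) and 40329170 (replicate 2) reads in genes, and the KO libraries 17663416 (replicate 1) and 19255782 (replicate 2). Pairs of values below give replicate 1 before replicate 2. Levels are given as CPM, counts scaled to library size, where libraries are compared, and as RPKM, the same values per kilobase of exon, where genes are compared with each other. Both use library sizes corrected with TMM factors. Dis3 was at 80.2 and 80.7 CPM in WT and at 39.6 and 42.9 CPM in KO, so both knockout libraries lay below both controls (log2 fold change -0.96 ± 0.0729, edgeR quasi-likelihood test, adjusted p = 2.34e-09). Spermatid genes (Prm1, Prm2, Tnp1, Tnp2 and 6 others) summed to 7.08 to 8.94 CPM per library. Spaca1, among the others, was at 4.42 to 5.64 CPM of this, and Prm1, Prm2, Tnp1 and Tnp2 were each at 0 to 0.291 CPM.

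The windows of 300 bases from RefSeq (GRCm38.p6) around transcription starts, 250 bases before and 50 after, are shown for 4 genes on which the results below turn. Tdrd1 had the highest level, Tdrd12 was among the largest falls and Tdrd7 had the smallest fall. Tdrd7 and Tdrd9, like Stk31 (window not shown), had more antisense upstream reads in both KO libraries than in either WT library. Scaled to CPM, the same held for Tdrd6 and Tdrd12 as well, while Rnf17 overlapped. By CPM, 70.5% of all tested antisense regions had both KO libraries above both WT libraries. Capitals mark matches, on either strand, to the MYB words (CAACGG or CAACTG or TAACGG or TAACTG) and to the E-box CACGTG. MYBL1 (A-MYB) is known to activate piRNA pathway genes in spermatocytes, and E-boxes are bound by MAX-containing repressors of germ cell genes in other cells.
Tdrd1 (chr19:56825959-56826258, plus strand): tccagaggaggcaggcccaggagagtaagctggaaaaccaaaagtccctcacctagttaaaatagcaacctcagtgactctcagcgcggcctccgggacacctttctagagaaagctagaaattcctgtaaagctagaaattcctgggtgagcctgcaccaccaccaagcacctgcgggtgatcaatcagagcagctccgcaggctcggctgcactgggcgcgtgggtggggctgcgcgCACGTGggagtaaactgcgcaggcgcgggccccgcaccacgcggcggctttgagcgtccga
Tdrd9 (chr12:111971309-111971608, plus strand): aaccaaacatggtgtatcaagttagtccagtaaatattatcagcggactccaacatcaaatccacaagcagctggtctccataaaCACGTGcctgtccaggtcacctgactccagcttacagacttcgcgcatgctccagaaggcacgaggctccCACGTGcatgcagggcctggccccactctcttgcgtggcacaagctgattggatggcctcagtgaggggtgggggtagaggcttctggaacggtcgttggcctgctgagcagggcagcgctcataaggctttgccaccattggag
Tdrd12 (chr7:35537695-35537994, minus strand): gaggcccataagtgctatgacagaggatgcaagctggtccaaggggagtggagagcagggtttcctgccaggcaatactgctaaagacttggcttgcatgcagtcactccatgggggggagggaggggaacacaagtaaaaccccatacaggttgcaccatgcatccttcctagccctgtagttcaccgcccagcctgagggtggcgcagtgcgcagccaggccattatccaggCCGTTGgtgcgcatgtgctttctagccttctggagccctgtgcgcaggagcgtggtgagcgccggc
Tdrd7 (chr4:45965085-45965384, plus strand): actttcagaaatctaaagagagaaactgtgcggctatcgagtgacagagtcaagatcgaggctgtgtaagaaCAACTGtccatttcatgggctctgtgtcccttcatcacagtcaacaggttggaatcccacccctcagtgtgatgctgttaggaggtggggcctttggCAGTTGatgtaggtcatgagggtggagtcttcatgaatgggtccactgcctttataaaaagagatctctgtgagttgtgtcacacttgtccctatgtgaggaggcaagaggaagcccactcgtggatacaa

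RefSeq windows were found for 7 of the 9 genes; Rnf17 and Tdrd6 were not matched. Where a gene had several starts, the one nearest to the gene start used for counting was taken. Of the 7, 4 held a MYB word (Tdrd5, Tdrd7, Tdrd12 and Tdrkh) and the other 3 held an E-box (Tdrd1, Tdrd9 and Stk31), with none holding both. Among all 32851 RefSeq windows of the same length, 28.3% held a MYB word, 7.15% an E-box and 33.5% either. The MYB match began 16 bases before the start in Tdrd12 and 10 bases before it in Tdrd5, and the E-box began 11 bases before the start in Tdrd1. The CCAAT box (CCAAT) was in 2 of 7 against 37.4% of all windows. The GC box (GGGCGG) was in 3 of 7 against 35.7%, and the TATA box (TATAAA) in 2 of 7 against 13.6%, all searched on both strands. No MYB word overlapped an E-box in these windows, since none held both, and a match is a description of letters only. CpG counts per window ranged from 4 in Tdrd7 to 48 in Tdrd5, with a median of 20 against 7 for all windows. The E-box, the GC box and some MYB words hold a CpG themselves, and the shares of all windows were not matched for CpG. Tdrd7 has further RefSeq starts 6963 and 7497 bases downstream, each in a window with 32 CpG. The tally of words depends on the start taken: the Tdrd7 window at 6963 bases held no MYB word and no E-box, that at 7497 held 1 MYB word, and the window of a Tdrd1 start 4503 bases downstream held no E-box. The start taken for Tdrd5 lies 316 bases from the gene start used for counting. Reads were counted per gene, so the starts of Tdrd7 were not measured apart.

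In control testes the level per length was highest for Tdrd1 and lowest for Tdrkh. Tdrd1 was at 84.6 ± 2.5 RPKM (SD, n = 2), followed by Stk31 at 68.6 ± 2.92 and Tdrd9 at 48.3 ± 0.288. These 3 genes stood apart, with no overlap between their libraries. Rnf17 (36.8 ± 3.22 RPKM), Tdrd5 (34.1 ± 0.833) and Tdrd6 (32.9 ± 1.69) followed, and neighbours in this order overlapped between libraries. Tdrd12 came next at 31.1 ± 0.658 RPKM, and its libraries (30.6 and 31.6) did not overlap with those of Tdrd6 (34.1 and 31.7), though the gap was small. Tdrd7 (24.9 ± 0.119 RPKM) and Tdrkh (18 ± 0.954) were lowest and did not overlap with the others. In KO the order was the same down to Tdrd5 (22.7 ± 1.24 RPKM). Tdrd12, Tdrd6 and Tdrd7 then lay together at 19.7 ± 0.00586, 19.4 ± 2.79 and 19.2 ± 0.386 RPKM, within the spread of Tdrd6, and Tdrkh was again lowest at 11.9 ± 0.223.

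**Figure D1:**
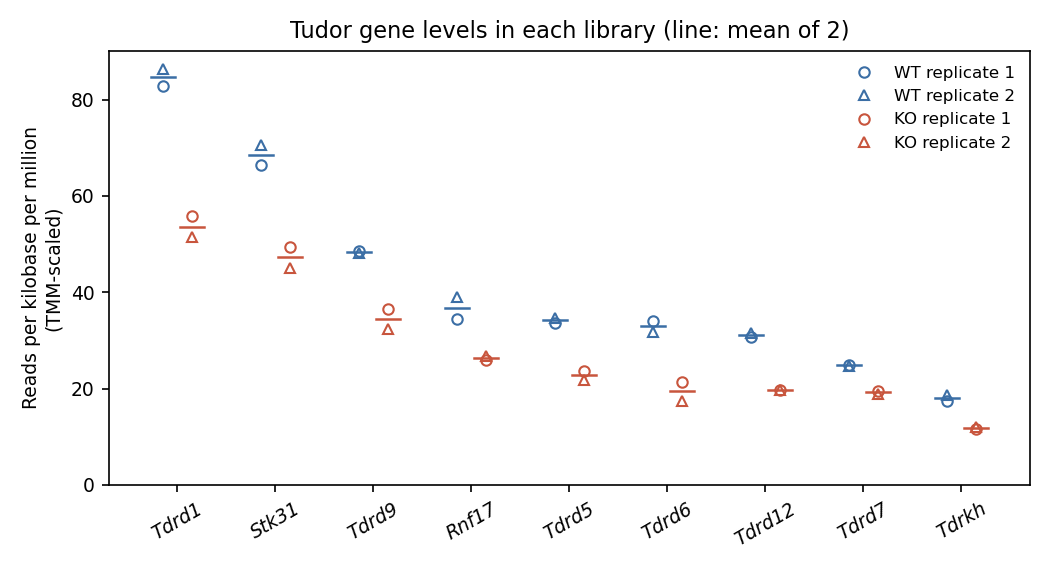
Levels of the 9 Tudor genes in each library, in RPKM on TMM-scaled library sizes, with symbols for the 4 libraries and lines for the mean of 2. For each gene both KO libraries lie below both WT libraries, and Tdrd1 is highest in both groups.

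All 9 genes fell in KO testes, by 0.37 to 0.76 on the log2 scale, which left 59% to 77.2% of the control level (edgeR quasi-likelihood test, adjusted p from 3.31e-08 to 9.17e-05). Their median log2 fold change was -0.59. Over the 25076 genes tested the median was 0.05, and 20.3% fell, 11.6% rose and 31.9% passed in either direction. Of the 2758 tested genes within the members' range of average CPM, 53.7% fell and 9.43% rose, with a median of -0.19. Both KO libraries lay below both WT libraries for each of the 9 genes, as they did for 32.7% of all tested genes, while 35.6% had both KO libraries above both WT libraries. All 9 genes lie on autosomes and passed the filter on low counts, with 71.3 to 1310 times the reads expected from background (a trimmed mean of reads in regions upstream of untested autosomal genes, scaled to exon length).

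Among the genes of piRNA production, Tdrd1 encodes a scaffold of repeated Tudor domains that binds the PIWI protein MILI in the intermitochondrial cement. Tdrd1 (ENSMUSG00000025081, GRCm38 chromosome 19, 56826209 to 56870012) had 451 and 470 CPM in WT and 304 and 280 CPM in KO. The groups were separate, with a gap larger than the difference between replicates. Its log2 fold change was -0.66 ± 0.0618 (SE; edgeR adjusted p = 3.31e-08).

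Tdrd12 (ENSMUSG00000030491, chromosome 7, 35469098 to 35537745), which encodes a helicase-like protein needed for secondary piRNAs, had 133 and 137 CPM in WT and 85.5 in both KO libraries. Replicates lay within a few percent of each other in both groups. It fell by 0.66 ± 0.0622 on the log2 scale (edgeR adjusted p = 3.74e-08), close to the size for Tdrd1.

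Tdrkh (ENSMUSG00000041912, chromosome 3, 94413273 to 94434668) encodes a mitochondrial membrane protein that holds PIWI proteins in place while piRNA precursors are trimmed. It had 106 and 115 CPM in WT and 71.9 and 73.9 CPM in KO, with no overlap. The log2 fold change was -0.60 ± 0.066 (edgeR adjusted p = 2.85e-07). Its exons overlap those of Oaz3 by 2255 bases on the opposite strand; reads were counted by strand, per the file headers.

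Tdrd5 (ENSMUSG00000060985, chromosome 1, 156255296 to 156303664), which carries LOTUS domains beside its Tudor domain and binds piRNA precursors, had 233 and 241 CPM in WT and 164 and 152 CPM in KO. It fell by 0.59 ± 0.061 (edgeR adjusted p = 1.37e-07), the middle value of the 9. The exons of Tdrd5 share 176 bases with 4930518J20Rik on the opposite strand.

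Tdrd9 (ENSMUSG00000054003, chromosome 12, 111971559 to 112068854), an RNA helicase gene whose product works with the nuclear PIWI protein MIWI2, had 262 and 260 CPM in WT. Its KO libraries were at 197 and 175 CPM, further apart than the WT pair but both below it. The log2 fold change was -0.49 ± 0.0635 (edgeR adjusted p = 2.68e-06).

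With all 4 libraries, the genes of the chromatoid body scaffold stood at the 2 ends of the range. Tdrd6 (ENSMUSG00000040140, chromosome 17, 43615335 to 43630299) encodes a large protein of repeated Tudor domains that the chromatoid body needs for its shape. It had 241 and 224 CPM in WT and 151 and 123 CPM in KO. Its replicates differed more than those of most members, and KO replicate 2 was the lower of the pair. It had the largest fall, -0.76 ± 0.0792 (edgeR adjusted p = 1.89e-06), and without KO replicate 1 or KO replicate 2 the log2 fold change was -0.94 or -0.67. Without KO replicate 2 the largest fall was that of Tdrd12 (-0.71), so the rank of Tdrd6 depends on that library.

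Tdrd7 (ENSMUSG00000035517, chromosome 4, 45965334 to 46034761), a LOTUS and Tudor domain gene whose product also acts in the lens of the eye, had 98.8 and 98.1 CPM in WT and 77.1 and 75 CPM in KO. Its replicates were among the closest, and the groups did not overlap. It had the smallest fall, -0.37 ± 0.0641 (edgeR adjusted p = 9.17e-05). The ratio of Tdrd6 to Tdrd7 per length was 1.37 and 1.28 in WT and 1.10 and 0.922 in KO, a pair picked after the values were seen (exact permutation p = 0.333, the smallest that 4 libraries allow).

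Rnf17 and Stk31 join a Tudor region to another kind of domain. Rnf17 (ENSMUSG00000000365, chromosome 14, 56402581 to 56525032), a RING finger gene whose product forms granules of its own and limits piRNA amplification, had 215 and 244 CPM in WT and 162 and 167 CPM in KO. Its WT libraries were further apart than its KO libraries. The log2 fold change was -0.48 ± 0.0646 (edgeR adjusted p = 4.3e-06). Stk31 (ENSMUSG00000023403, chromosome 6, 49395604 to 49469501), which encodes a kinase-like protein of germ cells, had 215 and 229 CPM in WT and 160 and 146 CPM in KO. It fell by 0.54 ± 0.0629 (edgeR adjusted p = 6.59e-07).

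**Figure D2:**
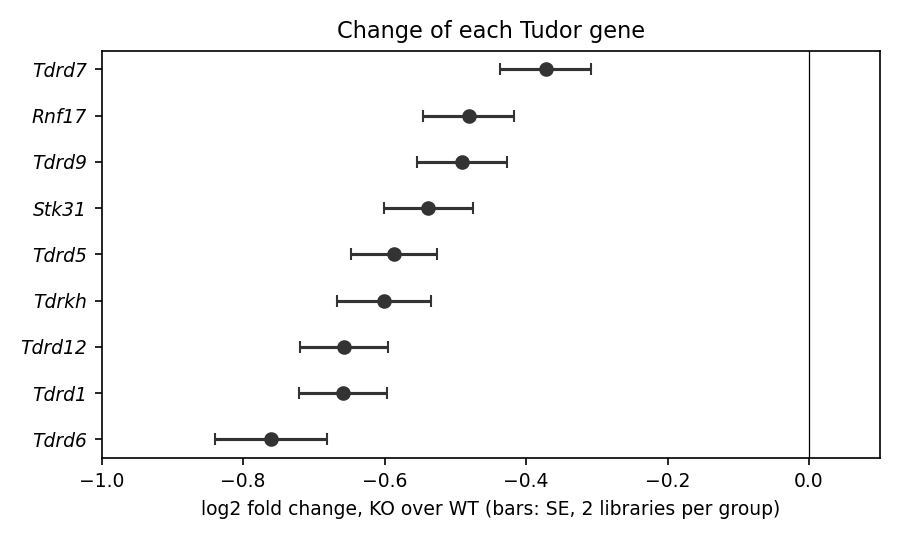
Log2 fold change of each Tudor gene (KO over WT, horizontal axis) with its SE as bars, from 2 libraries per group. Values run from -0.76 for Tdrd6 to -0.37 for Tdrd7, and the bars of neighbours overlap.

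Of each library's reads for the 9 genes, scaled by length, Tdrd1 held 22.2% and 22.4% in WT and 21.2% and 20.9% in KO. The share of Tdrd7 was 6.69% and 6.43% in WT and 7.39% and 7.72% in KO. Tdrd9 (13% and 12.5%, then 13.8% and 13.2%) and Stk31 (17.8% and 18.3%, then 18.8% and 18.4%) also had higher shares in both KO libraries. Tdrd12, like Tdrd1, had lower ones (8.21% and 8.18%, then 7.47% and 8.03%). Tdrd6 went from 9.15% and 8.23% to 8.12% and 7.12%. The shares of Tdrkh and Rnf17 overlapped between groups, and Tdrd5 lay between 8.91% and 9.01% in the 4 libraries. The summed level of the 9 genes was 1956 and 2018 CPM in WT and 1373 and 1277 CPM in KO.

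Whole testis holds many cell types, so fewer germ cells and less RNA per germ cell cannot be told apart. Summed CPM of 20 pachytene genes was 6617 and 6656 in WT and 4397 and 3928 in KO, and that of 29 early meiotic prophase genes was 5063 and 5237 in WT and 3720 and 3680 in KO. Of these, 19 of 20 pachytene genes fell and 0 rose (median log2 fold change -0.87); Crisp2 (-1.01), a gene of the sperm acrosome, and Adam2, a sperm surface gene left at 49.8% of its control level, had the smallest adjusted p. Of the early meiotic genes 25 of 29 fell and 0 rose (median -0.43); Syce3 (-0.88) and Syce1 (-0.79) of the synaptonemal complex had the smallest. Differentiating spermatogonia had 6 of 10 genes lower and 1 higher, and undifferentiated spermatogonia 2 of 11 lower and 0 higher. Over all tested genes 20.3% were lower and 11.6% higher. Within the 9 Tudor genes' range of average CPM these shares were 53.7% and 9.43%, and shares at each list's own levels were not taken.

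In the other direction, 9 of 10 macrophage genes rose, while 11.6% of all tested genes rose and 20.3% fell. The macrophage genes had sums of 181 to 185.9 CPM in WT and 295.7 to 302.5 CPM in KO. Of 20 Sertoli cell genes 7 rose and 0 fell, with sums of 8615 to 8819 CPM in WT and 9377 to 9543 in KO, and no marker of either list was at 0. Among 7 Leydig cell genes 2 rose and 2 fell, and among 6 peritubular myoid genes 2 rose and 0 fell. The part of these shifts in the fall of the Tudor genes was not tested.

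The Tudor genes were also set against other germ cell transcripts of the same library. Per 1000 reads of the early meiotic prophase genes, the 9 genes together had 386 and 385 reads in WT and 369 and 347 in KO (log2 ratio -0.11; exact permutation p = 0.333, two-sided, the smallest the 4 libraries allow). Per 1000 reads of the pachytene genes they had 296 and 303 in WT and 312 and 325 in KO, a log2 ratio of 0.09 in the opposite direction. These ratios use summed reads, so abundant genes of a list weigh most. Hspa2, the most abundant pachytene gene, had a log2 fold change of -0.49 against the list's median of -0.87. Per 1000 reads of the other granule and piRNA genes the groups overlapped, with 474 and 473 in WT and 482 and 453 in KO (log2 ratio -0.02).

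Single members differed in these ratios. Tdrd6 per 1000 early meiotic reads was 47.6 and 42.8 in WT and 40.7 and 33.5 in KO (log2 ratio -0.28), and the log2 ratio was -0.43 without KO replicate 1 and -0.15 without KO replicate 2. Tdrd1 went from 89.1 and 89.8 to 81.8 and 76 (log2 ratio -0.18). Tdrd12 went from 26.2 and 26.1 to 23 and 23.2 (-0.18), and Tdrkh (-0.12) and Tdrd5 (-0.11) also lay lower in both KO libraries. Tdrd7 was at 19.5 and 18.7 in WT and 20.7 and 20.4 in KO (log2 ratio 0.10). Against pachytene genes Tdrd7 (14.9 and 14.7 to 17.5 and 19.1) and Tdrd9 (39.7 and 39.1 to 44.9 and 44.5) lay higher in both KO libraries, while Tdrd1, Tdrd6, Tdrd12 and Tdrkh overlapped. Rnf17, Stk31 and Tdrd5 also lay higher against pachytene genes in both KO libraries. Each of the 9 genes and their sum was compared against 3 lists, and no exact permutation test of these can go below p = 0.333.

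**Figure D3:**
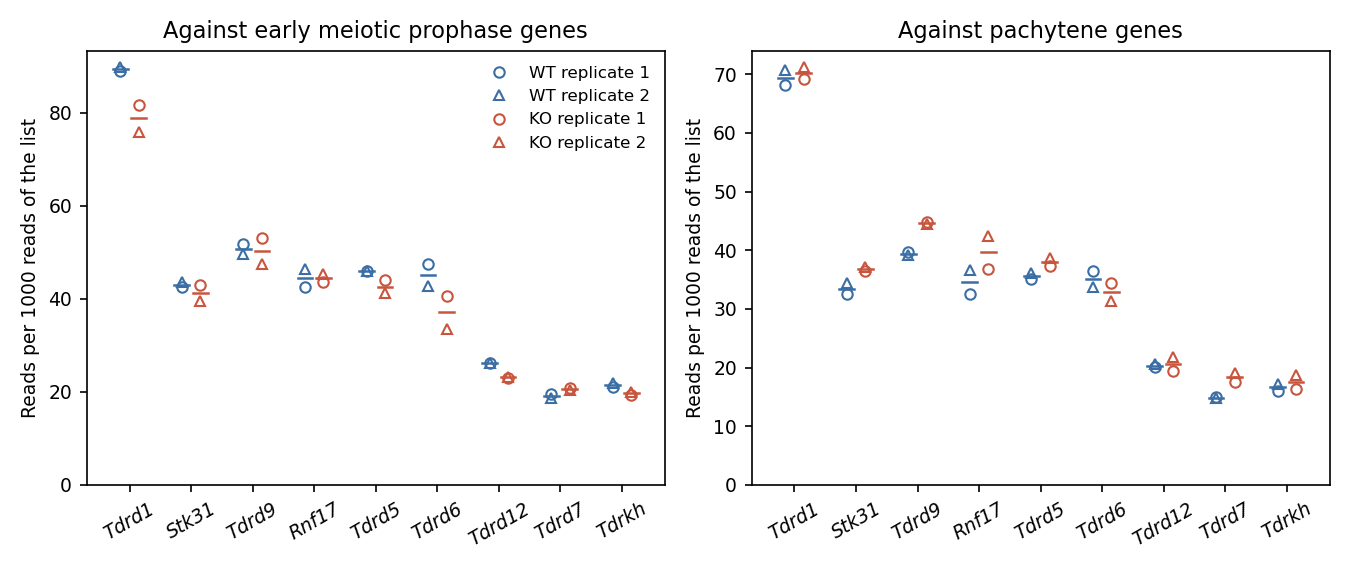
Reads of each Tudor gene per 1000 reads of the early meiotic prophase list (left) and of the pachytene list (right), with symbols for the 4 libraries and lines for the mean of 2. Tdrd1, Tdrd6, Tdrd12 and Tdrkh lie lower in both KO libraries on the left and overlap with WT on the right, Tdrd5 lies lower on the left and higher on the right, and Tdrd7 lies higher in KO on both sides.

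The germ granule and piRNA pathway genes that carry no Tudor domain, called partners here, moved the same way. They include PIWI proteins, helicases, piRNA nucleases and the activator gene Mybl1. Of the 20, 16 fell and 0 rose, against 20.3% and 11.6% of all tested genes, and the median log2 fold change was -0.51. Within the 9 Tudor genes' range of average CPM 53.7% of tested genes fell and 9.43% rose. Shares at the partners' own levels were not taken. Piwil1, the PIWI protein MIWI of spermatocytes and spermatids, went from 604 and 688 CPM in WT to 398 and 375 CPM in KO (-0.74 ± 0.0666; edgeR adjusted p = 2.15e-08). Ddx25, a helicase of the chromatoid body, fell by 0.73 ± 0.0664, and Mael, a piRNA granule protein gene, by 0.64 ± 0.06. The germ cell helicase gene Ddx4 fell by 0.57 ± 0.059, Gpat2 by 0.61 ± 0.0704 and Tex15, a partner of MIWI2, by 0.49 ± 0.0599. The 4 genes that did not pass were Btbd18 (-0.23), Morc1 (-0.10), Piwil4 (-0.12) and Spocd1 (-0.01). Piwil4 (MIWI2) and Spocd1, which act in fetal germ cells, were at 3.84 ± 0.354 and 2.81 ± 0.326 CPM in WT. Mybl1, named after its values were seen because its product binds the MYB words above, fell by 0.46 ± 0.0644.

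Genes of symmetric arginine methylation, which make the mark that Tudor domains read, also included genes that fell. Of these, 6 of 7 passed, all lower, with a median of -0.34, while 20.3% of all tested genes fell. Prmt5, the main enzyme, went from 252 and 268 CPM in WT to 211 and 199 CPM in KO (-0.34 ± 0.0608; edgeR adjusted p = 0.000124). Prmt7 (-0.47 ± 0.069) and the PRMT5 cofactor gene Coprs (-0.53 ± 0.0891) fell as well, with Riok1 (-0.31 ± 0.0797), Prmt9 (-0.34 ± 0.107) and Clns1a (-0.23 ± 0.0781). Without WT replicate 2 the count was 3, and Riok1, Prmt9 and Clns1a then had adjusted p of 0.052, 0.184 and 0.163. Wdr77, the obligate partner of PRMT5, had a log2 fold change of -0.27 ± 0.103 (edgeR adjusted p = 0.0524).

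Tudor domain genes outside the granules, which mostly read histone or splicing factor methylation, moved in both directions. Over all tested genes 20.3% fell and 11.6% rose, and within the 9 granule genes' range of average CPM 53.7% fell and 9.43% rose. Of 22 such Tudor domain genes found (Tp53bp1 was not matched under that symbol), 8 fell and 3 rose, with a median of -0.09. Those that fell most clearly were Phf1 (-0.55 ± 0.0656), a Polycomb partner, Uhrf1 (-0.42 ± 0.0668), which maintains DNA methylation, and Tdrd3 (-0.37 ± 0.0719). Setdb1 (-0.30 ± 0.0595), Smn1 (-0.30 ± 0.0666) and Mtf2 (-0.31 ± 0.0713) also fell. Arid4a (0.21 ± 0.0645), Kdm4a (0.20 ± 0.0675) and Phf19 (0.78 ± 0.276) rose, but with DESeq2, with scaling to Sertoli cell genes, with no filter on low counts and without KO replicate 1 or WT replicate 2 none of the 3 passed. Without WT replicate 1 and without KO replicate 2, 1 of them passed. Phf19 had 66 and 55 reads in WT and 58 and 63 in KO, or 3.72 to 4.89 times background. The nuclease gene Snd1, which has a Tudor domain and was named after its values were seen, was at 78.6 ± 0.329 CPM in WT and 74.1 ± 0.864 in KO (edgeR adjusted p = 0.331).

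**Figure D4:**
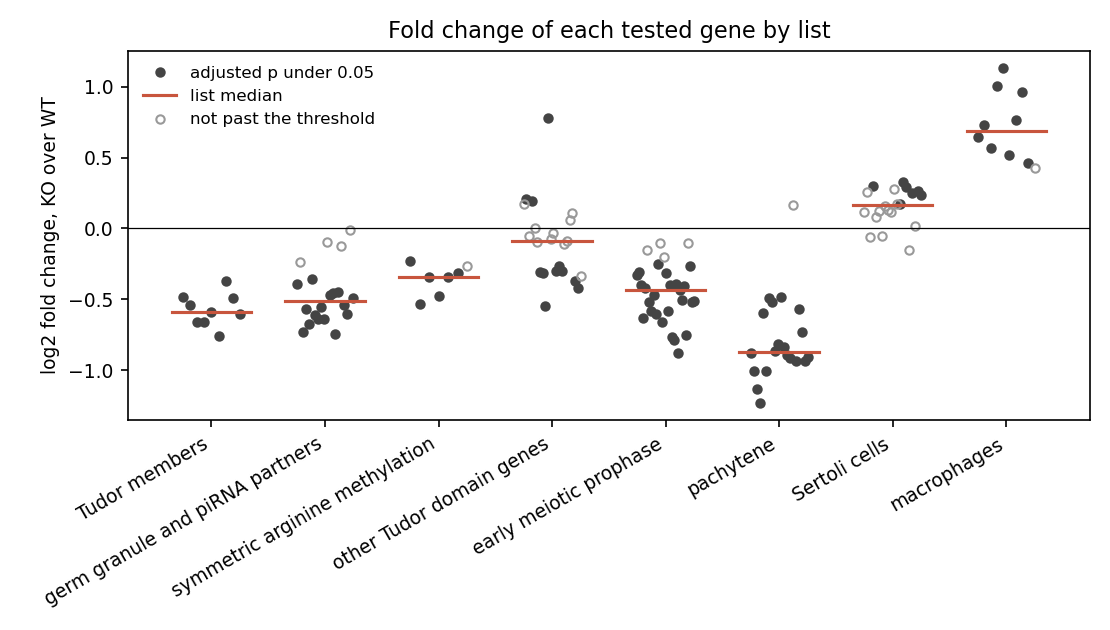
Log2 fold change (KO over WT) of each tested gene by list, with filled points for adjusted p under 0.05 and a line at the list's median. The Tudor members (median -0.59) lie near their partners (-0.51), between the early meiotic (-0.43) and pachytene (-0.87) lists and below the other Tudor domain genes (-0.09).

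Of 10201 other genes of at least 10 CPM, the 5 whose deviations from their own mean over the 4 libraries lay nearest to the median of the 9 members were Morn2, Xrcc2, Smg9, Smim8 and Hyls1 (distance 0.0106 to 0.022 on the log2 scale). The members themselves lay at 0.0244 (Tdrd5) to 0.268 (Tdrd6) from it. With 4 libraries this likeness mostly restates a fold change, here -0.57 to -0.59, and is a description only.

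Reads in the 3000 bases upstream of genes were counted for Tdrd6, Tdrd7, Tdrd9, Tdrd12, Rnf17 and Stk31; Tdrd1, Tdrd5 and Tdrkh were not in these tables. On the antisense strand Tdrd7 had 2 and 11 reads in WT. It had 23 and 26 in KO, from smaller libraries. Tdrd9 had 13 and 4 in WT and 21 and 25 in KO. Both KO libraries lay above both controls in reads for each of these genes, at 2.34 to 2.58 times background. The KO libraries were also higher in reads for Stk31, which did not pass (below). By CPM both KO libraries lay above both WT libraries for Tdrd6 and Tdrd12 too, and overlapped with WT for Rnf17. Background was 8.04 and 7.52 reads per region and strand in WT and 8.98 and 10.1 in KO.

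On the library scale of the genes, the antisense log2 fold change was 2.72 ± 0.601 for Tdrd7 (edgeR adjusted p = 0.0162) and 2.16 ± 0.6 for Tdrd9 (adjusted p = 0.0354). Tdrd7 passed the filter on low counts only through the KO libraries, where it is high, as did Stk31 (below), and a region that entered this way had to differ. Tdrd9 passed it in both KO libraries and in WT replicate 1, and could not have entered through its WT libraries alone. WT was at 0.0677 and 0.29 CPM for Tdrd7 and 0.44 and 0.105 CPM for Tdrd9. With no filter the edgeR adjusted p was 0.000534 for Tdrd7, 0.00694 for Tdrd9 and 0.0665 for Stk31. On the library scale of the genes, background reads (given above) were also higher in KO, whose libraries were smaller. Tested sense regions had a median log2 fold change of 0.93, so a rise was not particular to the antisense strand. The part of background in these rises was not tested. Of 18596 antisense regions tested 11.5% rose and 0.113% fell, with a median log2 fold change of 1.01. Both KO libraries lay above both WT libraries in 70.5% of them and below in 1.66%. The counts behind these shares, 2143 higher and 21 lower, were 48 and 139 with the table scaled on itself, and 792 were higher with DESeq2. Leaving out 1 library gave 4855 higher without WT replicate 1, 1508 without WT replicate 2, 382 without KO replicate 1 and 510 without KO replicate 2. With the upstream table scaled on itself Tdrd7 was at 1.75 (adjusted p = 0.27) and Tdrd9 at 1.28 (0.485). Tdrd7 did not pass without KO replicate 1 (2.73, adjusted p = 0.0536) and was at 4.12 without WT replicate 2. Tdrd9 did not pass without WT replicate 2 (1.42, 0.103), KO replicate 1 (2.19, 0.133) or KO replicate 2 (2.11, 0.153), and was at 3.43 without WT replicate 1. Tdrd6 (26 and 35 reads in WT, 30 and 38 in KO; 0.95 ± 0.342, adjusted p = 0.0688, and 0.011 with the table scaled on itself) and Stk31 (4 and 8, then 16 and 9; 1.86 ± 0.648, adjusted p = 0.0637) did not pass. Rnf17 (18 and 8, then 12 and 10 reads; 0.51 ± 0.625) did not pass either, and Tdrd12 (2 and 9, then 7 and 23 reads) had too few reads to be tested.

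On the sense strand Stk31 stood apart, with 611 and 827 reads upstream in WT and 254 and 262 in KO, 26 to 110 times background. RefSeq places one start of Stk31 65 bases upstream of the gene start used for counting. They were 96 and 95.4 per 1000 gene reads in WT and 87.1 and 87.2 in KO. Their log2 fold change was -0.67 ± 0.165 (edgeR adjusted p = 0.0716), near that of the gene (-0.54), and all sense regions had a median of 0.93, with 0.0544% of 18393 called higher and 0.00544% lower. Both KO libraries lay below both WT libraries for Stk31, as for 2.06% of sense regions, and above in 64.7%. The counts of sense regions called, 10 higher and 1 lower, were 2 and 57 with the table scaled on itself, 1094 and 31 with no filter, 1655 and 42 with the replicate block, and 9 and 13 with DESeq2. Without WT replicate 1 they were 3094 and 26, without WT replicate 2 281 and 9, without KO replicate 1 26 and 17, and without KO replicate 2 15 and 5. With DESeq2, the replicate block, no filter or the table scaled on itself it passed (adjusted p = 0.0492, 0.0218, 0.0309 and 0.0249). Sense reads of the other regions were few, from 2 to 34 per library, and Tdrd6 (0.70 ± 0.409), Tdrd9 (0.02 ± 0.43) and Tdrd12 (0.10 ± 0.627) did not pass, while Tdrd7 and Rnf17 were not tested.

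**Figure D5:**
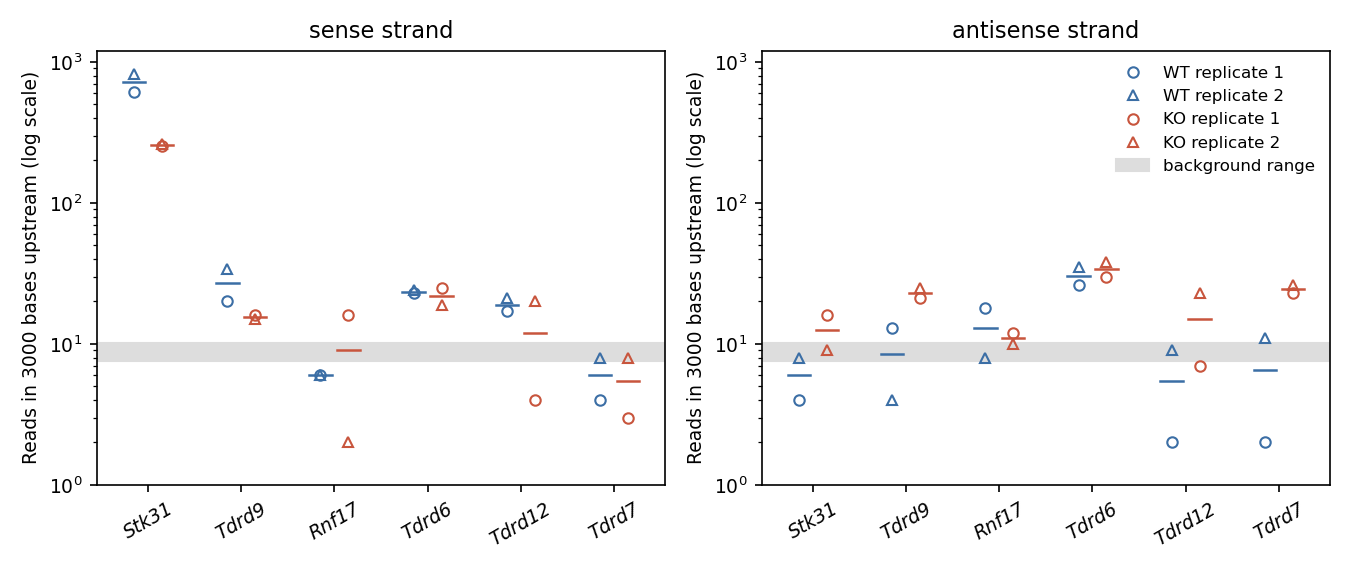
Reads in the 3000 bases upstream of 6 Tudor genes on the sense (left) and antisense (right) strand, per library, on a log axis, with lines for the mean of 2 and a grey band for the range of background reads per region (7.52 to 10.1). Only Stk31 has sense reads far above the band. Tdrd7, Tdrd9 and Stk31 have more antisense reads in both KO libraries than in either WT library. Scaled to CPM (not drawn), the same holds for Tdrd6 and Tdrd12 as well, while Rnf17 overlaps. By CPM, 70.5% of all tested antisense regions had both KO libraries above both WT libraries.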

How the data were processed

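RNA of whole testes was sequenced from strand-selected libraries primed with random and poly(T) primers, per the labels' protocols; the labels call the molecule polyA RNA. The deposited tables hold raw read counts per gene and per 3000-base region upstream of genes, sense and antisense, made with featureCounts 1.6.4 on GENCODE M18 with strand-specific counting, per the file headers. Trimming with cutadapt, alignment with HISAT2 and the build GRCm38.p5 are named in the submitters' processing notes.

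The tests on counts were quasi-likelihood tests of edgeR 4.0.16 (R 4.3.3, filterByExpr, TMM, Benjamini-Hochberg over all tested rows, threshold 0.05). Upstream tables used the library sizes and TMM factors of the gene table. The SE is the log2 fold change over the square root of F. Alternatives were DESeq2 1.42.0, other scalings and filters, background subtraction, a replicate block and leaving out each library. Replicates differed by more than sampling noise (chi-square per degree of freedom 5.04 in WT and 5.98 in KO).

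The members and lists were chosen with earlier results of these data known. All members were named, with up to 6 genes of smallest adjusted p from each of the partner, other Tudor and arginine methylation lists and any in the list's minority direction, up to 2 per cell type list, and the 5 genes of nearest profile.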

Additional observations from a re-analysis of the deposited data

How the results depend on the processing

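The 9 Tudor genes were lower and past the threshold under each of the 11 alternatives run, with log2 fold changes from -0.94 to -0.30. The count of genes lower in KO (5092) ranged from 4060 to 6987. The count of genes higher (2906) was 1008 with DESeq2, 1937 with no filter and 1199 with background subtracted, and 1324 to 2429 leaving out 1 library. Scaling to Sertoli cell genes moved the median of all tested genes from 0.05 to -0.07. With background subtracted it was -0.13, and with no filter 0.21, each over the genes tested in that setting. Other Tudor domain genes higher (3) were 0 with DESeq2, Sertoli scaling and no filter, and 0 to 1 leaving out 1 library; those lower (8) were 13 with Sertoli scaling. Arginine methylation genes lower (6) were 3 to 6 leaving out 1 library.

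With the upstream tables scaled on themselves, sense reads were at -0.17 for Tdrd6, -0.87 for Tdrd9, -0.77 for Tdrd12 and -1.56 for Stk31, and antisense reads at 1.75 for Tdrd7, 1.28 for Tdrd9, 0.011 for Tdrd6 and -0.38 for Rnf17. Sense Stk31 was at -0.67 with no filter and with DESeq2. Leaving out 1 library, sense reads ranged from -0.16 to 0.24 for Tdrd9 and from -1.34 to 0.78 for Tdrd12, and antisense reads from 2.10 to 4.12 for Tdrd7, 1.42 to 3.43 for Tdrd9 and -0.10 to 1.41 for Rnf17. The log2 ratio of the 9 genes was 0.09 against pachytene genes, -0.019 against the partners and -0.15 to -0.06 leaving out 1 library. The cause of these changes was not tested. Counts near background limit the upstream values.

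Same-numbered libraries did not deviate together (correlation -0.00826). With 2 libraries per group this value cannot exclude a pairing of animals or of processing, which the labels do not state. With the replicate block the 9 genes were lower (median -0.59), 5469 genes were lower and 3362 higher, and sense reads were at -0.054 for Tdrd12 and -0.67 for Stk31.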
